A study of Mus musculus with 16 samples.

Results

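Chemokines are small secreted proteins that guide moving cells through receptors coupled to G proteins. In the brain they are made by microglia, neurons, astrocytes and vessels, where some recruit immune cells and others act in development, as *Cxcl12* does for migrating granule cell precursors of the dentate gyrus. Described here are 10 chemokine genes of the mouse hippocampus: *Ccl9*, *Ccl6*, *Ccl3*, *Ccl4*, *Ccl12*, *Ccl25*, *Ccl27a*, *Cx3cl1*, *Cxcl12* and *Cxcl14*. Every probe of the deposited table that carries the current or an older symbol of these genes was taken, which gave 10 of the 17872 gene symbols of the table and 19 of its 25697 probes. The set was built around *Ccl9*, which was known to be lower in *Mef2c*-het mice at both ages, so its differences between the genotypes are given as a description, with no test. The question asked of the other genes was whether they follow *Ccl9*.

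Hippocampal RNA of 16 mice was hybridised to Illumina MouseRef-8 v2 beadchips, with 1 array per mouse. The groups were wild type (WT) at postnatal day (P) 1, *Mef2c*-het at P1, WT at P30 and *Mef2c*-het at P30, with 4 mice in each. *Mef2c*-het mice carry a single copy of a conventional *Mef2c* allele that lacks exon 2 in all cells, on a C57BL/6J background, and the WT mice were their littermates. The array labels call them KO, and give neither sex nor litter. Signals are log2 values after quantile normalization of all 16 arrays, and a difference is on that log2 scale. The median number of beads behind a probe's signal was 36 to 39 on an array, and 12638 to 14150 probes were detected, that is had a detection p under 0.05 against negative control beads. Arrays of the same age correlated with an r of 0.983 to 0.997. At each age 1 group of arrays stood apart, with a higher 5th percentile of the raw signal (140.0 to 161.4 against 105.8 to 130.8): WT replicates 6 and 7 and *Mef2c*-het replicate 7 at P30, and WT replicate 8 and *Mef2c*-het replicate 8 at P1.

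Of the 19 probes, 11 were detected on all 16 arrays and 3 on none. A probe was tested if it was detected on at least 4 arrays. By this filter 15 probes of 9 genes were tested, and *Ccl6* with its single probe was not. A gene that is dim in 1 group can pass the filter through the other groups, so the tested probes are not all the members.

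*Ccl9* (macrophage inflammatory protein 1 gamma, made by myeloid cells) and *Ccl6*, its nearest relative, lie near each other on chromosome 11 in a cluster with *Ccl3* and *Ccl4*. In the RefSeq annotation of GRCm38.p6 *Ccl9* spans 83572917 to 83578636 and *Ccl6* 83587886 to 83593087, so that the lower ends of the spans are 15.0 kb apart. By the same measure *Ccl3* lies 74.9 kb and *Ccl4* 75.7 kb from *Ccl9*, and the spans of *Ccl3* and *Ccl4* overlap. The 250 bases before the RefSeq start sites of *Ccl9* (chr11:83578637-83578886, minus strand) and *Ccl6* (chr11:83593088-83593337, minus strand) are shown because the first belongs to the gene with the largest difference and the second to the nearest member of the set. Capitals mark the stretch of each that a local alignment of the 2 promoters matched, which runs on past both start sites.
Ccl9: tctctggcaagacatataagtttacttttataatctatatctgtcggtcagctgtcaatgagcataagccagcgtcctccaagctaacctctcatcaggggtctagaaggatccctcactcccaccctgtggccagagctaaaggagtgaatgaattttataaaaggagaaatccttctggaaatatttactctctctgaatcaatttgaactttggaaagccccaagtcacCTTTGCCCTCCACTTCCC
Ccl6: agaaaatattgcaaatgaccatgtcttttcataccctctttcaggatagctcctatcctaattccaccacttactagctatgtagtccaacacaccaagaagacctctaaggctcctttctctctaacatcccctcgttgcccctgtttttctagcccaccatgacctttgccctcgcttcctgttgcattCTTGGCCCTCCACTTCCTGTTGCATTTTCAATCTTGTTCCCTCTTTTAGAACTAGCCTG
The alignment held 67 base pairs of which 58 were identical (86.6%), with 7 bases in gaps. It took up the last 18 bases before the start of *Ccl9* and the last 59 before that of *Ccl6*, so that relative to the start site the shared stretch lies further downstream in *Ccl9*. The TATA box (TATAAA on the gene's own strand) was found once in the *Ccl9* sequence, 92 bases before the start, and not in that of *Ccl6*. Of 32536 RefSeq promoters of the same length, 7.55% held it. The 10-base MEF2 consensus, searched on both strands, was found in neither sequence nor in those of the other 7 members with a promoter in the table, against 2.89% of all promoters. These are matches of letters in a short window and say nothing about binding.

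**Figure D1:**
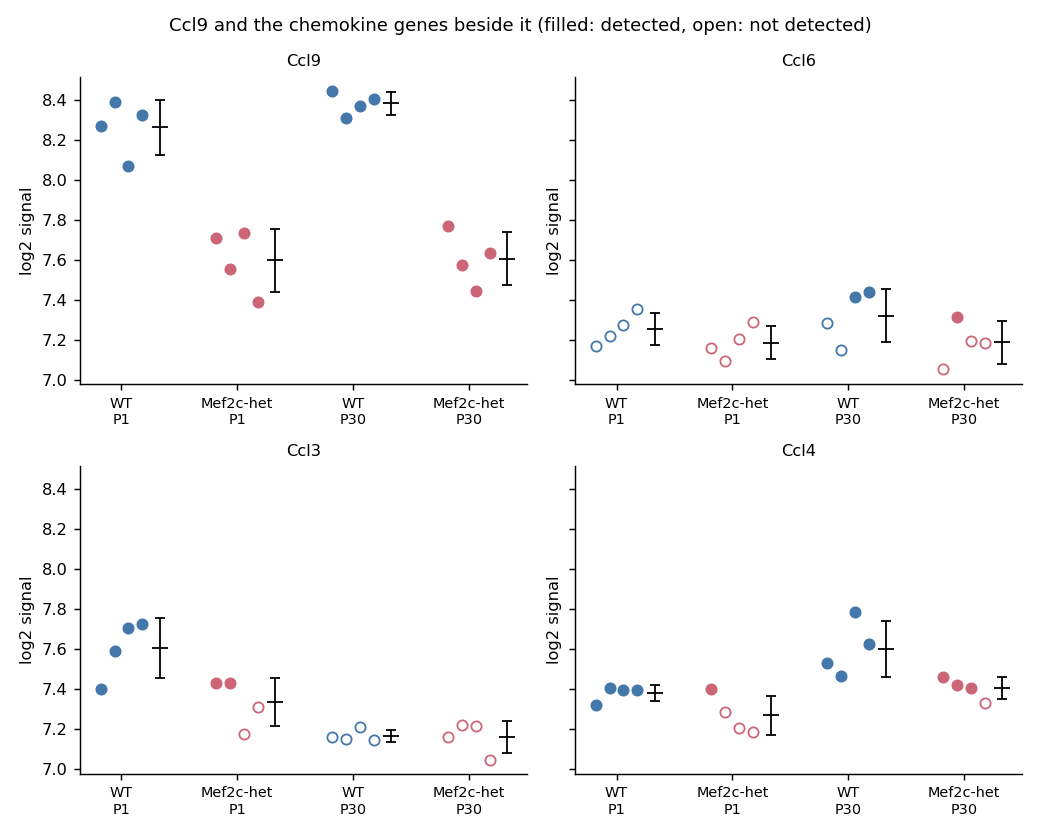
Log2 signal (vertical axis) of *Ccl9*, *Ccl6*, *Ccl3* and *Ccl4* (probe ILMN_1223257) on each array, by group, with 4 arrays in each; filled points were detected, open points were not, and the bar gives the mean with the SD. For *Ccl9* the *Mef2c*-het arrays lie between 7.39 and 7.77 and the WT arrays between 8.07 and 8.44, while the *Ccl6* signals of all groups overlap near the limit of detection.

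*Ccl9* was lower in *Mef2c*-het than in WT hippocampus at both ages, and by a similar amount. At P1 its log2 signals were 8.27, 8.39, 8.07 and 8.32 on the WT arrays (replicates 1, 4, 5 and 8) and 7.71, 7.55, 7.73 and 7.39 on the *Mef2c*-het arrays (replicates 1, 2, 4 and 8). The groups did not overlap: the highest *Mef2c*-het signal was 0.34 under the lowest WT signal, and 0.771% of all tested probes had such separate, lower arrays at P1. At P30 the signals were 8.44, 8.31, 8.37 and 8.40 in WT (replicates 2, 3, 6 and 7) and 7.77, 7.58, 7.45 and 7.63 in *Mef2c*-het mice (replicates 3, 5, 6 and 7). They were again apart, by 0.54 (1.2% of all tested probes at P30). The difference of the means was -0.67 (standard error 0.088) at P1 and -0.78 (standard error 0.088) at P30, which on the linear scale is a signal of 63.1% and 58.4% of WT. The P30 difference minus the P1 difference was -0.11 (standard error 0.13). In bulk tissue, fewer cells that make *Ccl9* and less *Ccl9* RNA in each cell cannot be told apart.

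The *Ccl9* probe (ILMN_2776603) was detected on all 16 arrays, but the *Mef2c*-het signals were near background. Its detection p reached 0.0376 on a *Mef2c*-het array at P1 and 0.005 at P30, whereas it was 0 on all WT arrays. The values above come from signals from which no background was subtracted here. With normexp background correction the difference was -1.39 at P1 and -1.55 at P30 on the log2 scale. Leaving out each array in turn gave -0.72 to -0.60 at P1 and -0.83 to -0.72 at P30. Without the arrays that stood apart it was -0.61 at P1 and -0.82 at P30.

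Across the whole table *Ccl9* was the only probe past an adjusted p of 0.05 at P30 (0.00677% of 14777 probes) and, with *Ly86*, 1 of 2 at P1 (0.0135%). With scaling to a common median in place of quantile normalization no probe passed at either age. *Mef2c*-het arrays lay below all WT arrays at both ages for 2 probes (0.0135% of those tested), that of *Ccl9* and 1 of the 2 probes of *Gpr34*, an orphan receptor of microglia, which is named here because its values were seen (ILMN_2742840, -0.33 at P1 and -0.20 at P30). These shares place *Ccl9* among all probes and, since it was chosen by these comparisons, are no test of it.

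Between P1 and P30, a comparison that the choice of the genes did not use, *Ccl9* showed no detectable change. Its mean was 8.26 ± 0.14 (SD, n = 4) at P1 and 8.38 ± 0.056 (SD, n = 4) at P30 in WT, a difference of 0.12 (95% interval -0.07 to 0.31, limma adjusted p = 0.263). In *Mef2c*-het mice it was 7.60 ± 0.16 (SD, n = 4) and 7.61 ± 0.13 (SD, n = 4), a difference of 0.01 (interval -0.18 to 0.20, adjusted p = 0.943).

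No other tested member followed *Ccl9* past the threshold, which hardly any probe of the table passed. Between the genotypes 0 of 14 probes of the 8 other tested genes passed an adjusted p of 0.05 in limma at P30 (0.00677% of all tested probes). At P1 it was 0 of 14 (0.0135%), and 0 of 14 for the difference of the 2 genotype effects (0.0%). With so few probes called anywhere, these counts do not set the members apart from other probes. At an unadjusted p under 0.05 there were 1, 3 and 2 of 14. These are larger shares than the 2.84%, 2.28% and 2.96% of all tested probes, but they rest on few probes. At each age the difference was below 0 for 7 of the 14 probes and above 0 for 7, with a median of 0.00 at both, as over all tested probes (-0.01 and 0.00). The 95% intervals of the 14 probes reached no lower than -0.43 at P30 and -0.43 at P1. For probes near background these intervals, too, are on the scale without background subtraction.

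**Figure D2:**
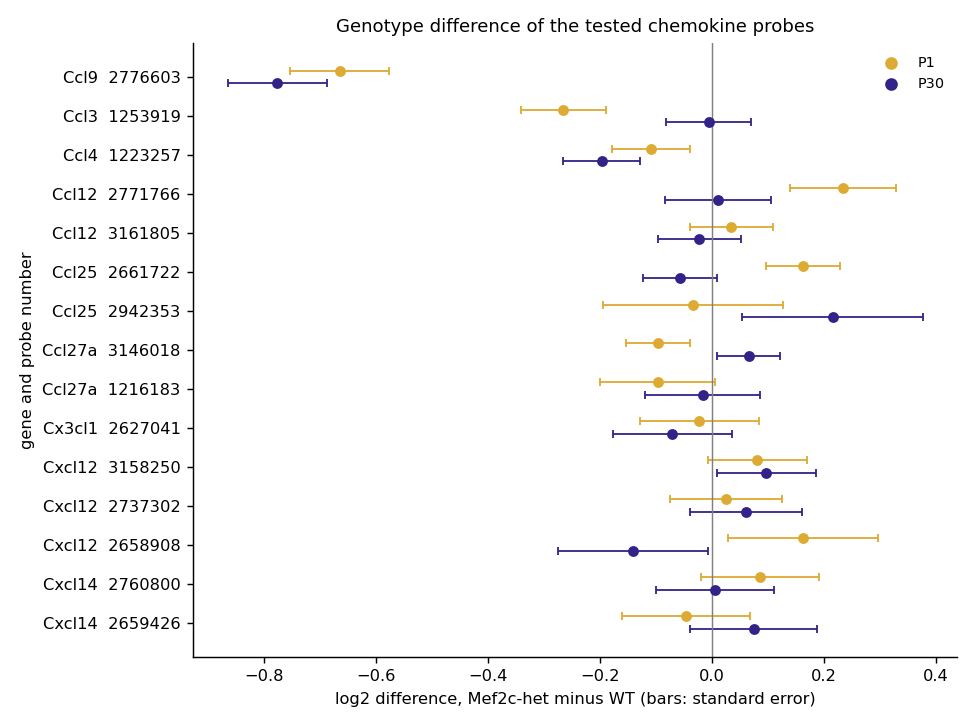
Difference of the mean log2 signal, *Mef2c*-het minus WT (horizontal axis), for each of the 15 tested probes at P1 and at P30, with the standard error of the limma fit over 4 arrays a group. *Ccl9* stands at -0.67 and -0.78, and the other 14 probes lie between -0.27 and 0.23.

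Of the genes beside *Ccl9*, *Ccl6* (a relative of *Ccl9* that is also made by myeloid cells) was too dim to compare. Its log2 signals at P1 were 7.17, 7.22, 7.28 and 7.35 in WT and 7.16, 7.09, 7.20 and 7.29 in *Mef2c*-het mice, none of them detected. At P30 they were 7.29, 7.15, 7.41 and 7.44 in WT, of which the last 2 were detected, and 7.05, 7.32, 7.20 and 7.18 in *Mef2c*-het mice, of which 1 was. The groups overlapped at both ages. A difference of *Ccl6* was therefore not measurable on these arrays, which does not mean that there is none.

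*Ccl3* and *Ccl4* (macrophage inflammatory proteins 1 alpha and 1 beta, released by activated microglia) were also dim. *Ccl3* had signals of 7.40, 7.59, 7.70 and 7.72 in WT and 7.43, 7.43, 7.18 and 7.31 in *Mef2c*-het mice at P1. The lowest WT array lay among the *Mef2c*-het arrays, of which 2 were below detection. The difference was -0.27 (interval -0.43 to -0.10, unadjusted limma p = 0.00314, adjusted p = 1.00, two-sided exact permutation p = 0.0857), which did not pass. With normexp it was -0.80 and did not pass either (adjusted p = 1.00). At P30 *Ccl3* was detected on none of the 8 arrays, and no genotype difference can be read there.

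*Ccl4* was read by 2 probes, 1 of which (ILMN_1224472) was detected on no array. The other (ILMN_1223257) had signals at P30 of 7.53, 7.47, 7.79 and 7.62 in WT and of 7.46, 7.42, 7.41 and 7.33 in *Mef2c*-het mice. All *Mef2c*-het arrays lay below all WT arrays, as they did for 1.2% of all tested probes. The gap was narrow, with the highest *Mef2c*-het array at 7.460 and the lowest WT array at 7.466, and *Mef2c*-het replicate 7 was not detected. The difference of -0.20 (interval -0.34 to -0.05) had an adjusted p of 0.994 in limma and an exact permutation p of 0.0286, the smallest that 4 arrays against 4 allow. The 2 highest WT signals were those of replicates 6 and 7, which stood apart, and without the arrays that stood apart the difference was -0.08, while with normexp it was -0.57 (adjusted p = 0.995). At P1 the difference was -0.11 (interval -0.26 to 0.04, exact permutation p = 0.114), and the highest *Mef2c*-het array, replicate 1 at 7.40, lay among the WT arrays. That array was the only *Mef2c*-het array at P1 on which the probe was detected. *Ccl4* was thus the only other member with separate, lower *Mef2c*-het arrays at either age, by a narrow gap and without passing the adjusted threshold.

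Further along chromosome 11, 81 other genes of the RefSeq table have the lower end of their span within 1 Mb of that of *Ccl9*. Of these 40 had a probe and 19 were tested, *Ccl3* and *Ccl4* among them. None of the 19 passed the adjusted threshold between genotypes at P30 or at P1 in limma. Their median difference was -0.04 at P30 and 0.04 at P1, against -0.01 and 0.00 over all tested probes. Only for *Ccl4* did the arrays of the genotypes not overlap, at P30. The lowest value in the window at P30 was that of *Taf15*, an RNA-binding protein whose gene lies 99.8 kb away on the lower side and which is named for its value, at -0.35 with overlapping arrays (exact permutation p = 0.200).

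**Figure D3:**
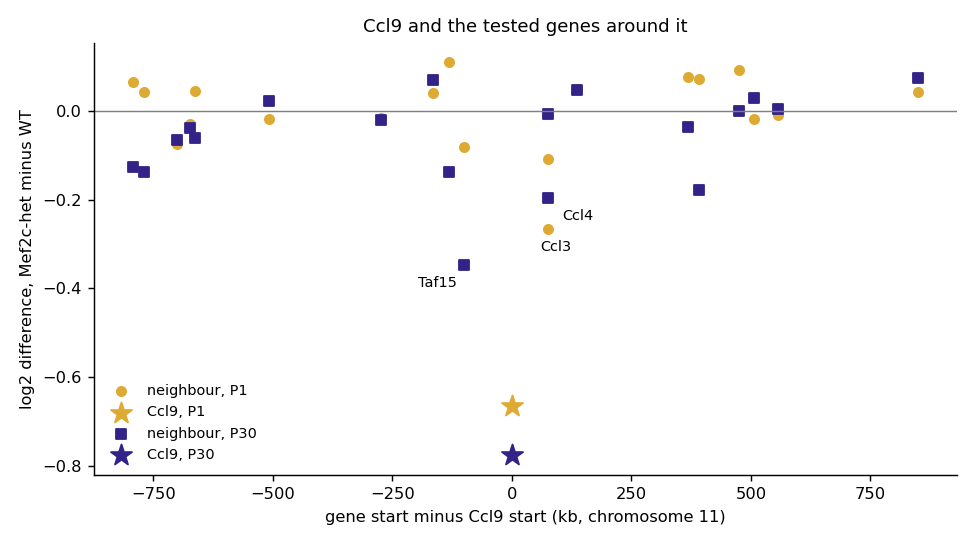
Difference of the mean log2 signal, *Mef2c*-het minus WT (vertical axis), of *Ccl9* (stars) and the 19 tested genes within 1 Mb of it, against the distance between the lower ends of the gene and of *Ccl9* in kb (horizontal axis). *Ccl9* lies at -0.67 (P1) and -0.78 (P30), while the neighbours lie between -0.35 and 0.11.

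*Ccl12* (monocyte chemoattractant protein 5, a ligand of *Ccr2*) lies on the same chromosome, 1471.1 kb from *Ccl9*, and was read by 2 probes. ILMN_2771766 had signals at P1 of 7.41, 7.74, 7.63 and 7.64 in WT and 8.14, 7.76, 7.76 and 7.68 in *Mef2c*-het mice. The *Mef2c*-het arrays were higher on average, by 0.23 (interval 0.03 to 0.44, adjusted p = 1.00, exact permutation p = 0.0571), the direction opposite to *Ccl9*, and the groups overlapped. Without *Mef2c*-het P1 replicate 1, the highest array, the difference was 0.13, and with normexp on all arrays 0.56. The other probe (ILMN_3161805) differed by 0.03 at P1. At P30 the differences of the 2 probes were 0.01 and -0.02. With age the signal fell in *Mef2c*-het mice for both probes, with differences of -0.39 (adjusted p = 0.00211) and -0.24 (adjusted p = 0.0110). At P30 ILMN_3161805 was detected on only 1 of 4 arrays in each genotype, so the lower end of its change lies near the limit of detection. This probe passed the filter only through its P1 arrays, so the filter favoured a fall with age. In WT the changes were -0.17 (adjusted p = 0.144) and -0.18 (adjusted p = 0.0448), of which the second did not hold without 6 of the 8 arrays, left out singly (adjusted p of 0.0184 to 0.159 over the 8), nor under 4 of 7 other settings.

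*Ccl25* (thymus-expressed chemokine, the ligand of *Ccr9*) was read by 2 probes that did not move together. ILMN_2661722 had signals at P1 of 8.08, 8.06, 8.19 and 8.15 in WT and of 8.20, 8.21, 8.33 and 8.40 in *Mef2c*-het mice. All *Mef2c*-het arrays lay above all WT arrays, as for 0.65% of all tested probes, but the difference of 0.16 (interval 0.02 to 0.30) had an adjusted p of 1.00 in limma (exact permutation p = 0.0286). For the other probe, ILMN_2942353, it was -0.03 (interval -0.38 to 0.31). At P30 the differences were -0.06 and 0.22, with overlapping arrays for both probes. With age ILMN_2661722 fell, with a difference of -0.17 in *Mef2c*-het mice (adjusted p = 0.0347), a call that did not hold without 5 of the 8 arrays, left out singly (up to 0.115), nor under 3 of 7 other settings, and differed by 0.05 in WT (adjusted p = 0.554). ILMN_2942353 differed by -0.32 in WT (adjusted p = 0.0959, and 0.0380 without WT P30 replicate 2 or 0.0422 without WT P1 replicate 8) and by -0.07 in *Mef2c*-het mice.

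*Ccl27a* (cutaneous T cell-attracting chemokine, the ligand of *Ccr10*; the table calls it Ccl27) had a bright probe, ILMN_3146018, whose 16 signals ran from 12.18 to 12.72. Its gene has a near copy, *Ccl27b*, on the same chromosome, and whether the probe separates the 2 is not known here. In WT it went from 12.67 ± 0.065 (SD, n = 4) at P1 to 12.24 ± 0.047 (SD, n = 4) at P30, a difference of -0.43 (adjusted p = 7.14e-06). In *Mef2c*-het mice it fell, with a difference of -0.26 (adjusted p = 8.07e-04), a call lost under scaling to a common median (adjusted p = 0.181). The second probe, ILMN_1216183, had -0.25 in WT (adjusted p = 0.0477, not held without 7 of the 8 arrays, left out singly, up to 0.161, nor under 4 of 7 other settings) and -0.17 in *Mef2c*-het mice (adjusted p = 0.178, and 0.0446 without *Mef2c*-het P1 replicate 2). Between genotypes both probes differed by -0.10 at P1, and by 0.06 and -0.02 at P30, with overlapping arrays throughout.

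With age 11 of the 15 tested probes passed the adjusted threshold in WT (6 lower and 5 higher at P30), and 9 of 15 in *Mef2c*-het mice (6 lower and 3 higher). These shares, 73.3% and 60.0%, are near those of all tested probes, 59.7% and 58.3%, so that a change with age is no particular trait of the set. By direction, 31.7% of all tested probes fell and 28.0% rose in WT, and 31.4% and 26.9% in *Mef2c*-het mice.

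**Figure D4:**
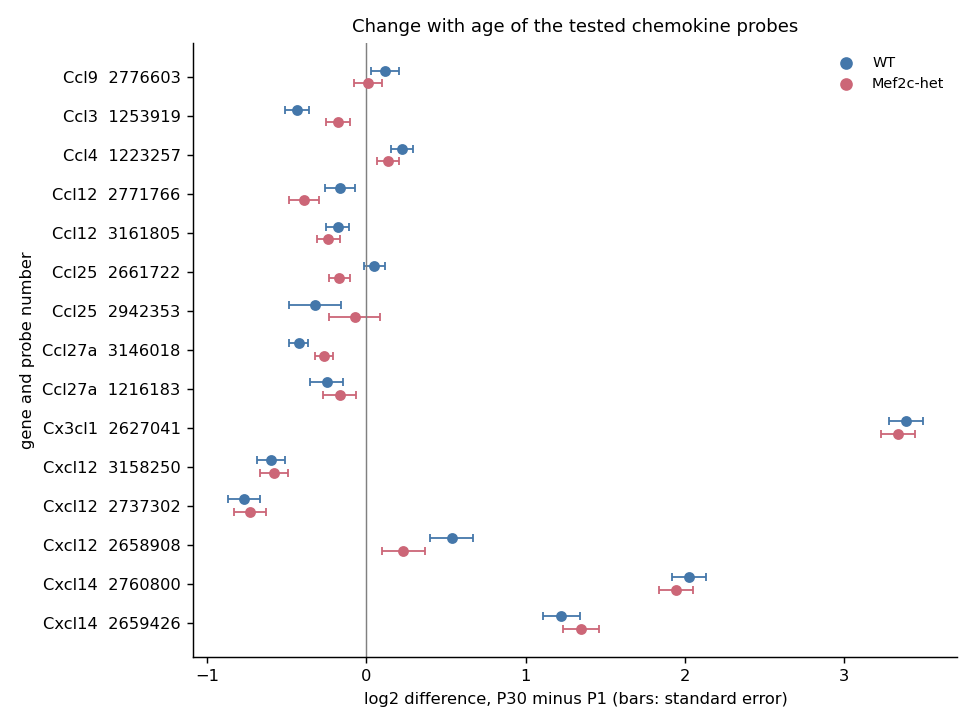
Difference of the mean log2 signal, P30 minus P1 (horizontal axis), for each of the 15 tested probes in WT and in *Mef2c*-het mice, with the standard error of the limma fit over 4 arrays a group. *Cx3cl1* rose by 3.39 and 3.34 and *Cxcl14* by 1.22 to 2.02, while *Ccl9* lies at 0.12 and 0.01.

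*Cx3cl1* (fractalkine, a membrane-bound chemokine of neurons read by microglia through *Cx3cr1*) had the largest change with age of the set. Its signals at P1 were 9.31 to 9.63 in WT and 9.18 to 9.73 in *Mef2c*-het mice, and at P30 12.70 to 12.89 and 12.58 to 12.90. The ages were far apart in both genotypes. It rose by 3.39 in WT (10.5-fold, adjusted p = 1.75e-13) and by 3.34 in *Mef2c*-het mice (10.1-fold, adjusted p = 2.22e-13). Between genotypes the difference was -0.02 at P1 (interval -0.25 to 0.20) and -0.07 at P30 (interval -0.30 to 0.15).

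*Cxcl14* (BRAK, made by interneurons and other cells of the hippocampus) rose by both of its probes. ILMN_2760800 went from 8.73 ± 0.19 (SD, n = 4) to 10.76 ± 0.11 (SD, n = 4) in WT, a rise of 2.02 (adjusted p = 7.45e-11), and rose by 1.94 in *Mef2c*-het mice (adjusted p = 1.23e-10). For ILMN_2659426 the rises were 1.22 (adjusted p = 9.86e-08) and 1.35 (adjusted p = 3.24e-08). The genotype differences of the 2 probes were 0.09 and -0.05 at P1 and 0.01 and 0.07 at P30, within the spread of the arrays.

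*Cxcl12* (stromal cell-derived factor 1, the ligand of *Cxcr4*) was read by 5 probes that the table lists under 3 RefSeq transcripts of the gene, and its detected probes moved in opposite directions with age. ILMN_3158250 fell, with a difference of -0.60 in WT (adjusted p = 1.92e-05) and -0.58 in *Mef2c*-het mice (adjusted p = 2.60e-05). ILMN_2737302, listed under another transcript, fell, with a difference of -0.77 (adjusted p = 4.81e-06) and -0.73 (adjusted p = 8.69e-06). ILMN_2658908, listed under the third, was at 10.05, 10.10, 10.13 and 10.19 in WT at P1 and between 10.59 and 10.72 at P30, a rise of 0.53 (adjusted p = 0.00254) with every P30 array above every P1 array. In *Mef2c*-het mice the same probe spread more widely, from 10.03 to 10.62 at P1 and from 10.15 to 10.79 at P30, and its difference of 0.23 did not pass (adjusted p = 0.154, and 0.0328 without P1 replicate 1 or 0.0253 without P30 replicate 6). The difference between the genotypes in this change was -0.30 (interval -0.71 to 0.10, adjusted p = 0.998). The last 2 probes, ILMN_3078973 and ILMN_2746295, were detected on no array although each is listed under the same transcript as 1 of the falling probes. The sequences of the probes were not used here, so which transcript ends each one reads is unknown. Between genotypes the 3 detected probes differed by 0.02 to 0.16 at P1 and by -0.14 to 0.10 at P30.

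*Ccl3* and *Ccl4* also changed with age in WT. *Ccl3* fell from 7.60 ± 0.15 (SD, n = 4) at P1 to a mean of 7.17 at P30, where it was detected on no array. Its level there has only a bound, at least 1.21-fold lower, and the bound was not tested. The limma adjusted p of 1.11e-04 belongs to the difference of -0.44 between the signals as measured. The *Ccl3* probe passed the filter through its P1 arrays alone, so the filter favoured a fall with age. In *Mef2c*-het mice its means were 7.34 and 7.16 (adjusted p = 0.0577). It passed without P1 replicate 4 (0.0192), with normexp (0.0294) and with trend and robust variances (0.0396). *Ccl4* rose in WT by 0.22 (adjusted p = 0.0113), from 7.38 ± 0.040 (SD, n = 4) to 7.60 ± 0.14 (SD, n = 4), a call lost without the arrays that stood apart (adjusted p = 0.179). In *Mef2c*-het mice *Ccl4* differed by 0.13 (adjusted p = 0.112, and 0.0478 without P1 replicate 1 or 0.0433 with normexp). Neither gene had a called difference between the genotypes in its change with age (adjusted p = 0.998 for both).

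Of the receptors through which chemokines act, 14 of 19 listed genes were detected on no array. *Ccr1*, the main receptor of *Ccl9* and *Ccl6*, was among the undetected, with log2 signals of 6.91 to 7.15 on all 16 arrays. *Ccr2*, the receptor of *Ccl12*, *Ccr9* and *Ccr10*, the receptors of *Ccl25* and *Ccl27a*, and *Ackr3*, which scavenges *Cxcl12*, were not detected either. *Cxcr4* and *Cx3cr1* were detected on all 16 arrays and tested. Neither passed between genotypes at P30 or at P1. Both passed with age in both genotypes, as did 59.7% of all tested probes in WT and 58.3% in *Mef2c*-het mice.

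*Cxcr4*, the receptor of *Cxcl12*, fell, with a difference of -2.08 in WT (from 9.64 ± 0.22 to 7.56 ± 0.10, SD, n = 4) and by -2.11 in *Mef2c*-het mice. *Cx3cr1*, the microglial receptor of *Cx3cl1*, rose by 0.69 in WT and 0.64 in *Mef2c*-het mice. Its genotype differences were -0.14 at P1 and -0.18 at P30, with overlapping arrays (exact permutation p = 0.343 and 0.229). Of 5 atypical receptors, which bind chemokines without G protein signalling, 3 were tested. *Ackr1* rose with age (0.58 in WT and 0.29 in *Mef2c*-het mice) and *Ackr2* fell (-0.34 and -0.30). *Ccrl2* was the only one whose arrays did not overlap between genotypes, at P30, where it was 0.14 higher in *Mef2c*-het mice (adjusted p = 0.994). Its exact permutation p of 0.0286 is the one that any such separation of 4 arrays from 4 gives. Separate, higher *Mef2c*-het arrays at P30 were seen for 0.69% of all tested probes.

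Of 29 further chemokine genes with a probe, 22 were detected on no array, among them *Ccl2* and *Ccl5*. Only *Ccl17*, *Cxcl16* and *Pf4* were tested, and none passed between genotypes. *Pf4* (platelet factor 4) fell with age, with differences of -0.92 in WT (adjusted p = 0.00171) and -0.85 in *Mef2c*-het mice (adjusted p = 0.00308). Thus most of these chemokines were below detection in both genotypes and at both ages, and a difference in them was not measurable.

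Over the 16 arrays the tested probes most like *Ccl9* by Pearson's r were those of *Syngr2* (0.70), *Ebag9* (0.68), *Syngr1* (0.67), *Stard7* (0.66) and *Bmx* (0.65), none of them a chemokine. The probe of *Ccl4* (ILMN_1223257) ranked 12 of all others, with an r of 0.61, and the next member was *Ccl3*, with 0.20. Once the group means were subtracted the leading probes were those of *Ppt1* (0.88), *Acaa2* (0.83), *Eif4e2* (0.82), *Tyms* (0.81) and *Nme7* (0.81). *Ccl4* then ranked 2915 with 0.24. The highest member was now *Cxcl12*, with ILMN_2737302 at rank 110 (0.66) and ILMN_3158250 at rank 636 (0.50). The lowest was *Cx3cl1*, at rank 14419 (-0.54). The first ranking is thus carried by the differences between the groups, which chose *Ccl9*, and the second by differences among mice or arrays within a group. All values come from the same 16 arrays and share their normalization, so the coefficients are a description.

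*Ccl9* is a gene of myeloid cells, so the markers of these cells are given beside it. Of 25 microglia markers 23 were tested, and 2 (*Itgam* and *Ptprc*) were detected on no array. At P1, where the *Ccl9* difference was -0.67, 19 of the 23 were lower in *Mef2c*-het mice and 4 higher. Their median difference was -0.13, against 0.00 over all tested probes. All *Mef2c*-het arrays lay below all WT arrays for 2 of the 23, and for 0.771% of all tested probes. *Ly86* (MD-1, a partner of the toll-like receptor homologue RP105) passed the threshold, at -0.76 (adjusted p = 0.0399). Its signals were 9.15, 9.62, 9.16 and 9.21 in WT and 8.68, 8.37, 8.61 and 8.45 in *Mef2c*-het mice. With each age normalized and fitted alone no probe passed at P1. The mean log2 signal over the 23 genes was 8.36 to 8.56 on the WT arrays and 8.17 to 8.41 on the *Mef2c*-het arrays, and the summed signal 10019 to 11873 and 8791 to 10605. At P30, where the *Ccl9* difference was -0.78, 5 of the 23 were lower and 18 higher. The median was 0.10, against -0.01 over all tested probes. The arrays did not overlap for 1 lower and 3 higher markers, against 1.2% and 0.69% of all tested probes. The mean over the genes was then 8.82 to 8.98 in WT and 8.83 to 9.12 in *Mef2c*-het mice, and the summed signal 15164 to 16859 and 15614 to 18658. The summed microglia markers of the *Mef2c*-het arrays at P30 lay within or above the WT range. At P1 the marker ranges of the genotypes overlapped but reached lower in *Mef2c*-het mice. A part of microglia number in the *Ccl9* difference was not tested at either age, and summed signals do not count cells.

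**Figure D5:**
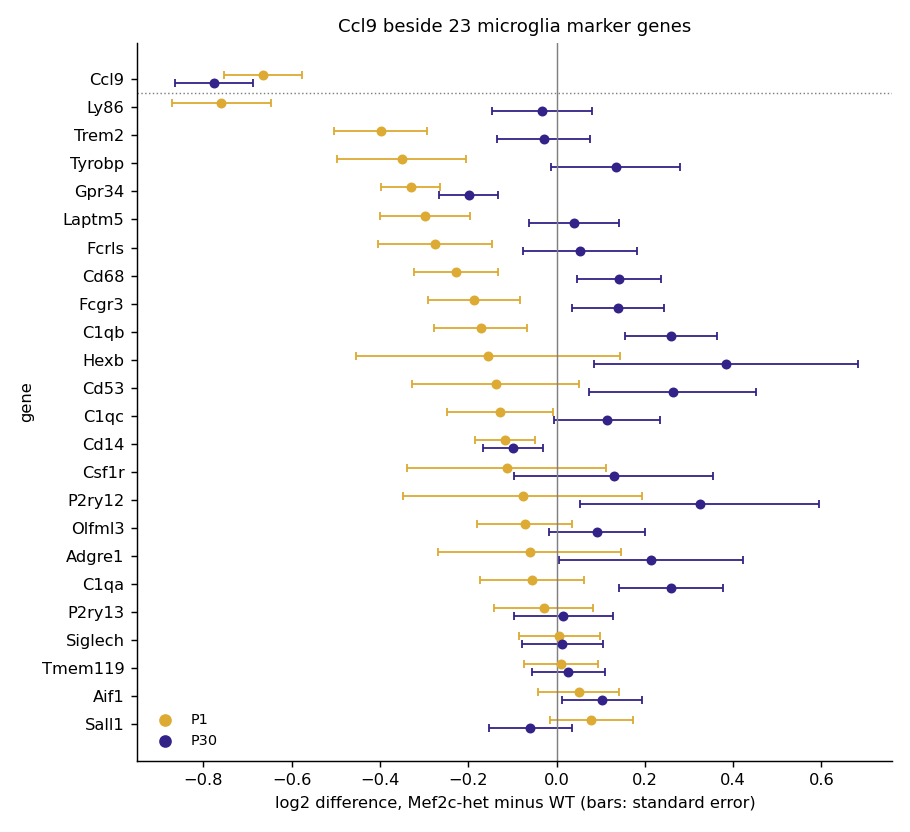
Difference of the mean log2 signal, *Mef2c*-het minus WT (horizontal axis), of *Ccl9* (top) and 23 microglia marker genes, sorted by the P1 value, at P1 and P30, with the standard error of the limma fit over 4 arrays a group. At P1 19 of the 23 markers lie below 0 and at P30 18 lie above it, while *Ccl9* lies at -0.67 and -0.78.

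Other myeloid and blood cells could also carry chemokines. Of 7 markers of border macrophages 6 were tested, and their genotype differences had a median of 0.05 at P1 and 0.09 at P30. For 9 neutrophil and monocyte markers with a probe, of which 4 were tested, the medians were 0.11 and -0.03. For 6 platelet markers, of which 3 were tested, they were 0.04 and -0.04. No marker of these lists passed between genotypes.

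*Mef2c* itself was read by 3 probes, 2 of them tested, and the position of exon 2 relative to these probes is not known here, so they are a weak check of the labels. At P30 ILMN_2887992 was at 8.62, 8.59, 8.96 and 8.70 in WT and 8.16, 8.42, 8.16 and 8.95 in *Mef2c*-het mice. *Mef2c*-het replicate 7 thus lay among the WT arrays, whereas its *Ccl9* signal of 7.63 did not. The differences of the 2 probes at P30 were -0.29 (exact permutation p = 0.200) and -0.25 (exact permutation p = 0.371), and -0.47 and -0.40 without that array. Without it the *Ccl9* means differed by -0.78. At P1 the *Mef2c* differences were 0.07 and -0.01 (exact permutation p = 0.714 and 0.971), so that at P1 the genotype label is not visible in *Mef2c* while the *Ccl9* signals of the 2 labels were apart.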

How the data were processed

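Hippocampal total RNA of 16 mice was labelled as biotinylated cRNA and hybridised to Illumina MouseRef-8 v2 beadchips. The authors deposited a table that was not normalized, with the mean bead fluorescence intensity, its standard error over beads and the number of beads for each probe and array. The same deposited table holds a detection p-value of each signal against the negative control beads. Any local background subtraction is not given in the sources used here. The submitters' processing notes name lumi and limma. No columns of the table were left unmapped.

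Intensities were log2-transformed and quantile-normalized over 16 arrays, and the filter kept probes detected (p under 0.05) on 4 or more arrays (14777 of 25697). A limma fit with 4 group means and moderated variances gave two-sided p-values, adjusted by Benjamini-Hochberg over all 14777 probes (R 4.3.3, limma 3.58.1). Probes were renamed through RefSeq gene records of GRCm38.p6 (25375 matched). For single probes an exact permutation test (two-sided, 35 splits) was added. A group in which a probe was detected on no array has only a bound: the brighter mean over, per array, the higher of the lowest detected signal and the probe's own. The scripts were tested on simulated data. Members and gene lists were chosen with earlier results of these data known. Named were all members with their probes, receptors that bind them (1 result is not reported here), *Mef2c*, listed genes past the threshold (up to 4 a direction) and the 5 probes most like *Ccl9*. For lists of genes, 1 probe a gene was counted. Alternatives were normexp background correction, median scaling, cyclic loess, no filter, a stricter filter, trend and robust variances, each age alone, the array groups as a block or left out, a replicate block, and leaving out each array. The limma p-values rest on the spread within groups, pooled over the 4 groups and moderated over all probes. With 1 array per mouse this spread holds differences between mice and between arrays. Litters are not given, and the number of arrays limits the precision.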

Additional observations from a re-analysis of the deposited data

Results flagged for a closer look

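In 4 of the 60 groups of 4 arrays formed by the 15 tested probes, a single array was set off from the rest, which chance gives in about 5% of groups. The value in each case is the gap to the nearest array as a share of the group's range, which exceeded Dixon's 95% critical value. For *Ccl4* (ILMN_1223257) WT P1 replicate 1 was lowest, at 7.32 against 7.395 for the next (0.8624). For *Ccl12* (ILMN_2771766) *Mef2c*-het P1 replicate 1 was highest, at 8.144 against 7.763 (0.8291). For *Ccl27a* (ILMN_3146018) *Mef2c*-het P30 replicate 6 was highest, at 12.437 against 12.274 (0.9299). For *Cx3cl1* WT P30 replicate 2 was lowest, at 12.698 against 12.873 (0.8856). No array of *Ccl9* stood apart in this way in any of the 4 groups.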

How the results depend on the processing

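*Ccl9* was left out of the counts between genotypes and for the difference of the genotype effects. Of the other members none was called in these comparisons under any alternative. With age 8 to 11 probes were called in either genotype. *Ccl9* moved beyond its spread only with normexp, to -1.553 at P30 and -1.388 at P1. Over all probes, scaling to a common median gave 0 calls at both ages, against 1 (P30) and 2 (P1). Each age alone gave 1 and 0, leaving out the array groups that stood apart 0 and 1, and normexp or these groups as a block 1 and 3. Replicate numbers are shared between genotypes within an age. Deviations of same-numbered arrays correlated at 0.091, 0.397 and 0.820 (P1) and at 0.170, -0.522 and 0.697 (P30). The values of 0.820 and 0.697 are those of arrays that both stood apart. WT replicate 6 and *Mef2c*-het replicate 7 at P30, which also stood apart, had 0.715 without a shared number. Whether the numbers pair mice therefore cannot be told, and the main fit did not take them as pairs. With the replicate block no probe was called at either age, and *Ccl9* was at -0.745 (P30) and -0.715 (P1). No paired analysis was possible for age because P1 and P30 mice are different animals.

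Probes with a difference near 0 changed sign, none of them called; causes were not tested. At P30 these were *Ccl3* (0.004 with normexp, 0.047 without the array groups), *Ccl12* ILMN_2771766 (-0.021 with them as a block, -0.014 without), *Ccl12* ILMN_3161805 (0.037 without), *Ccl25* ILMN_2661722 (0.004 without), *Ccl27a* ILMN_1216183 (0.022 with median scaling, 0.021 with the block, 0.002 without) and *Cxcl14* ILMN_2760800 (-0.054 without). At P1, with the replicate block, they were *Ccl25* ILMN_2942353 (0.01), *Ccl27a* ILMN_1216183 (0.057) and *Cxcl12* ILMN_2737302 (-0.051). The difference of the genotype effects changed sign for *Ccl4* (0.007 without the array groups), *Ccl27a* ILMN_1216183 (-0.057, replicate block), *Cx3cl1* (0.005 with median scaling, 0.065 without), *Cxcl12* ILMN_3158250 (-0.051 without, -0.056 replicate block) and *Cxcl12* ILMN_2737302 (-0.114 without). With age, median scaling and leaving out the array groups turned *Ccl25* ILMN_2661722 in WT (-0.021, -0.012) and *Ccl9* in *Mef2c*-het mice (-0.024, -0.075).

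Leaving out single arrays gave, at P30, -0.026 to 0.032 for *Ccl3*, -0.031 to 0.047 and -0.068 to 0.017 for the *Ccl12* probes, -0.062 to 0.025 for *Ccl27a* ILMN_1216183, -0.02 to 0.116 for *Cxcl12* ILMN_2737302, and -0.043 to 0.036 and -0.019 to 0.183 for the *Cxcl14* probes. At P1 it gave -0.013 to 0.086 for *Ccl12* ILMN_3161805, -0.128 to 0.089 for *Ccl25* ILMN_2942353, -0.124 to 0.059 for *Cx3cl1*, -0.041 to 0.1 for *Cxcl12* ILMN_2737302 and -0.004 to 0.171 for *Cxcl14* ILMN_2760800. For the difference of the effects it gave -0.002 to 0.154 for *Ccl27a* ILMN_1216183, -0.13 to 0.053 for *Cx3cl1*, -0.042 to 0.094 and -0.043 to 0.102 for *Cxcl12* ILMN_3158250 and ILMN_2737302, and -0.166 to 0.009 for *Cxcl14* ILMN_2760800. With age in *Mef2c*-het mice it gave -0.061 to 0.061 for *Ccl9* and -0.197 to 0.039 for *Ccl25* ILMN_2942353. In all, 1193 of 1302 values for single probes kept their direction and their side of the threshold, and 68 changed sign. Signal over background limits *Ccl6*, *Ccl3*, *Ccl4* and most receptors, which lay at or near the limit of detection.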

Other observations

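Of 11 listed genes for proteases that cut or release chemokines 6 were tested, and none passed between genotypes at P30 or at P1. With age 4 fell in WT, and 3 fell and 1 rose in *Mef2c*-het mice, a share near that of all tested probes (59.7% and 58.3%). *Mmp14* (a membrane-bound matrix metalloprotease) fell from P1 to P30, with a difference of -1.40 in WT (limma adjusted p = 4.89e-08) and -1.37 in *Mef2c*-het mice (adjusted p = 7.20e-08). *Mmp9* fell, with a difference of -1.03 (adjusted p = 2.52e-08) and -0.84 (adjusted p = 3.10e-07), and *Mmp2* also fell, with differences of -0.94 (adjusted p = 2.61e-07) and -1.09 (adjusted p = 4.22e-08). *Dpp4*, which trims the amino end of *Cxcl12* and other chemokines, fell in WT, with a difference of -0.22 (adjusted p = 0.0186) and differed by -0.09 in *Mef2c*-het mice (adjusted p = 0.328). *Ctss* (cathepsin S, which can release the soluble form of *Cx3cl1*) rose in *Mef2c*-het mice by 0.50 (adjusted p = 0.0298) and differed by 0.21 in WT (adjusted p = 0.364). *Adam17*, a sheddase of *Cx3cl1*, did not pass in either genotype. Whether these changes differ between genotypes was tested, and none passed.

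Of 14 genes of chemokine receptor signalling with a probe, 12 were tested and none passed between genotypes. With age 2 fell and 4 rose in WT, and 2 fell and 5 rose in *Mef2c*-het mice, a share below that of all tested probes in WT and near it in *Mef2c*-het mice (59.7% and 58.3%). *Ptk2b* (the calcium-dependent kinase Pyk2) rose by 3.35 in WT (adjusted p = 8.12e-15) and 3.22 in *Mef2c*-het mice (adjusted p = 1.39e-14). *Grk2*, which phosphorylates active receptors, rose by 0.70 and 0.45, and the G protein subunits *Gnb1* (-0.80 and -0.88) and *Gnai2* (-0.56 and -0.50) fell.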
